A study of Homo sapiens and Mus musculus with 18 samples.

Results

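This account compares what keratin 17 (K17, gene KRT17) did to transcript levels in 2 human pancreatic cancer cell lines, and describes the genes that moved the same way and the opposite way in both. It rests on 11 of the 18 samples of the series, whose groups were chosen by their labels. These were all 3 libraries of L3.6 wild type cells and all 3 of L3.6 cells with a CRISPR-Cas9 knockout of K17. From PANC-1 came all 3 libraries of cells made to over-express K17, and replicates 1 and 3 of cells with an empty vector. PANC-1 empty vector replicate 2 was left out. No label sets it apart, and the choice was made with earlier results of these data known. The 6 mouse libraries were not used. L3.6 is an adenosquamous line of the pancreas and PANC-1 a ductal adenocarcinoma line. All cells grew in DMEM with fetal bovine serum and antibiotics, and total RNA was taken with TRIzol. Neither the number of knockout clones nor the promoter of the K17 vector is given in the labels, and nothing there says that replicates came from separate cultures, so that the p-values reflect how far these libraries vary, and that variation may be technical alone. Wild type L3.6 and K17 PANC-1 are the K17-high groups. "Rose with K17" means higher in the K17-high group of a line and past the test, "fell with K17" the reverse. The interaction is the log2 fold change of PANC-1 (K17 minus empty vector) minus that of L3.6 (wild type minus knockout). The comparison asks which K17 effects 2 lines share, in a study of mitochondrial K17 and resistance to chemotherapy.

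Keratins are the intermediate filament proteins of epithelial cells, and K17 is a type I keratin of skin appendages and of healing or transformed epithelium. In pancreatic cancer it marks the basal-like tumour subtype, which has a poor outcome. Besides its role in the cytoskeleton, K17 is known to act in signalling and in the nucleus. In the present design K17 was removed from one line that makes it and added to one that makes almost none, so the 2 contrasts test loss and gain against different backgrounds.

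Promoter sequences of a few genes that the results turn on are shown first. WIPF1, AMIGO2 and CXCL1 lead 3 of the 4 patterns described below, and NFKBIA was added after its values were seen, as an NF-kB target that moved the same way in both lines. The window of GDF15, which leads the other pattern, and that of the YAP target ANKRD1 lie partly in exons of other annotated transcripts and are not shown. Each run is the 250 bases before the annotated start of RefSeq's first entry, 5′ to 3′ along the gene's strand, on GRCh38.p14. Capitals mark matches, on either strand, to the letters GGAATG (known from TEAD factors, the DNA-binding partners of YAP), TGANTCA (AP-1) and to the NF-kB motif.
WIPF1 (chr2:174682914-174683163, minus strand): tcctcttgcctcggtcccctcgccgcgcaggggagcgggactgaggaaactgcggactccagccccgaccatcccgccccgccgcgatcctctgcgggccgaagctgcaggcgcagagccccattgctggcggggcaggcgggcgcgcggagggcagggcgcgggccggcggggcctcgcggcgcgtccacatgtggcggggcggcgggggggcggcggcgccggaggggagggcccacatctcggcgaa
AMIGO2 (chr12:47079952-47080201, minus strand): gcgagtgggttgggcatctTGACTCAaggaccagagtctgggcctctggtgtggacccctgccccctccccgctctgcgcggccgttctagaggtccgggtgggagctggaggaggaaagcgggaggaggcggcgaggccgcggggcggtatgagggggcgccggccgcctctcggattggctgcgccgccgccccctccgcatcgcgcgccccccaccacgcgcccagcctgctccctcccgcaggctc
CXCL1 (chr4:73869143-73869392, plus strand): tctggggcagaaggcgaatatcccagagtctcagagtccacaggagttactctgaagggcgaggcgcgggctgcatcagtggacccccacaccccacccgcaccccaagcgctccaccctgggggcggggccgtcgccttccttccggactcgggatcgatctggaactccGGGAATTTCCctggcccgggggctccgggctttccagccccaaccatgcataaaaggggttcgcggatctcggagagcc
NFKBIA (chr14:35404750-35404999, minus strand): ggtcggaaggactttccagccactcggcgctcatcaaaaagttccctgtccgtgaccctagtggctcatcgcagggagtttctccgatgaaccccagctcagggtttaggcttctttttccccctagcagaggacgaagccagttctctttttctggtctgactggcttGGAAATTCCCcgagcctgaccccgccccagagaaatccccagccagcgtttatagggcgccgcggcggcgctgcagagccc
The promoters of CXCL1 and NFKBIA each held 1 NF-kB match, at bases 79 to 70 and 81 to 72 before the start. The AP-1 match of AMIGO2 lay at bases 231 to 225. The unprinted window of ANKRD1 held 2 TEAD matches, at bases 220 to 215 and 128 to 123, and that of GDF15 held 1, at bases 230 to 225. None of these letters stood in the window of WIPF1.

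Counted over all promoters of this length, 56 of 10809 (0.518%) held the NF-kB letters, 1043 (9.65%) the TEAD letters and 432 (4%) the AP-1 letters. Among the genes described below as NF-kB targets 5 of 13 promoters (38.5%) held the NF-kB letters, and among YAP targets 5 of 15 (33.3%) the TEAD letters. AP-1 letters stood in 14 of 167 promoters (8.38%) of genes that fell with K17 in L3.6 and rose in PANC-1. They stood in 1 of 18 (5.56%) of genes that did the reverse. The shares were 2 of 56 (3.57%) for genes that rose in both lines and 1 of 47 (2.13%) for genes that fell in both. In all 8 motifs were counted, and no difference between these shares was tested. A letter match describes the sequence and is no evidence of binding.

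The L3.6 libraries held 9485257 to 15476629 counts each and the PANC-1 libraries 59671178 to 70789559, so that low genes are measured less precisely in L3.6. In the omitted empty vector library 18.8% of counts came from mitochondrial DNA, against 9.88 to 10.8% in the other 5 PANC-1 libraries, and it stood apart from them on the first principal component (132.1 against -30.84 to -22.24). Wild type L3.6 replicate 1 stood apart from replicates 2 and 3 (5.433 against 61.52 and 58.29, with -60.28 to -23.58 in the knockout). One pseudogene row, AC010970.1, took 6.05, 13.5 and 14.1% of counts in wild type L3.6 replicates 1, 2 and 3, 4.33 to 6.96% in the knockout and 0.201 to 0.513% in PANC-1. The rows of some genes may miss reads: EEF2, a translation factor that every cell uses, had 32 to 53 counts in L3.6 and 10960 to 13402 in PANC-1, and TUBB had 0 in PANC-1. Levels are therefore compared within a line, and between lines the direction and size of the K17 effect. Levels are given as CPM, counts scaled to library size. Both lines held epithelial transcripts. Mean KRT8 was 1063 CPM in wild type L3.6 and 644.6 in empty vector PANC-1, and mean EPCAM was 407.3 and 33.3 CPM. In the same order, KRT19 was at 1473 and 352.6 CPM and KRT18 at 14.15 and 11.8 CPM. KRT7 was at 79.08 and 0.8289 CPM, and CDH1 was low in both lines (1.353 and 0.4121 CPM). Of the squamous markers, TP63 stood at 248 CPM in wild type L3.6, while KRT14 and KRT6A were at 0.0799 and 0 CPM there.

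KRT17 (ENSG00000128422.15, chr17:41619441-41624842, GRCh38) was measured at 14.2, 14.2 and 12.8 CPM in the 3 knockout libraries of L3.6 and at 99.1, 105.6 and 104.0 CPM in wild type. In PANC-1 it was at 0.0318 and 0 CPM with the empty vector and at 155.0, 184.3 and 166.5 CPM with K17. Both contrasts ran in the labelled direction, and the knockout kept KRT17 reads. The log2 fold change was 2.90 ± 0.10 (SE) in L3.6 and 13.02 ± 0.23 in PANC-1 (edgeR quasi-likelihood test, adjusted p = 4.81e-08 and 4.6e-11). The PANC-1 value rests on 27709 counts against 2, a ratio of 10130 with an exact 95% interval of 2805 to 83670 that covers counting error only. The 2 contrasts therefore differ in the size of the K17 step as well as in the line.

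Most genes that passed the test did so in 1 line. Of 15758 genes tested in 1 edgeR fit, 2342 (14.9%) passed an adjusted p of 0.05 in L3.6, where 740 (4.7%) rose and 1602 (10.2%) fell with K17, and 1239 (7.86%) passed in PANC-1, where 851 (5.4%) rose and 388 (2.46%) fell. In both lines 376 genes (2.39%) passed. Of these, 239 (1.52% of genes tested) moved in opposite directions and 137 (0.869%) in the same direction. The larger part of the opposite group, 216 genes (1.37%), fell with K17 in L3.6 and rose in PANC-1, and 23 (0.146%) did the reverse. The same-direction group held 75 genes (0.476%) that rose in both and 62 (0.393%) that fell in both, KRT17 among the 75. Shared genes were 5.85% of the L3.6 calls and 11.1% of the PANC-1 calls, opposite genes 10.2% and 19.3%. Over all genes tested 50.1% had the same sign in both lines, and the effects had a Spearman correlation of -0.00644 and a Pearson correlation of -0.0177. These correlations run across genes of the same 11 libraries and are descriptions.

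**Figure D1:**
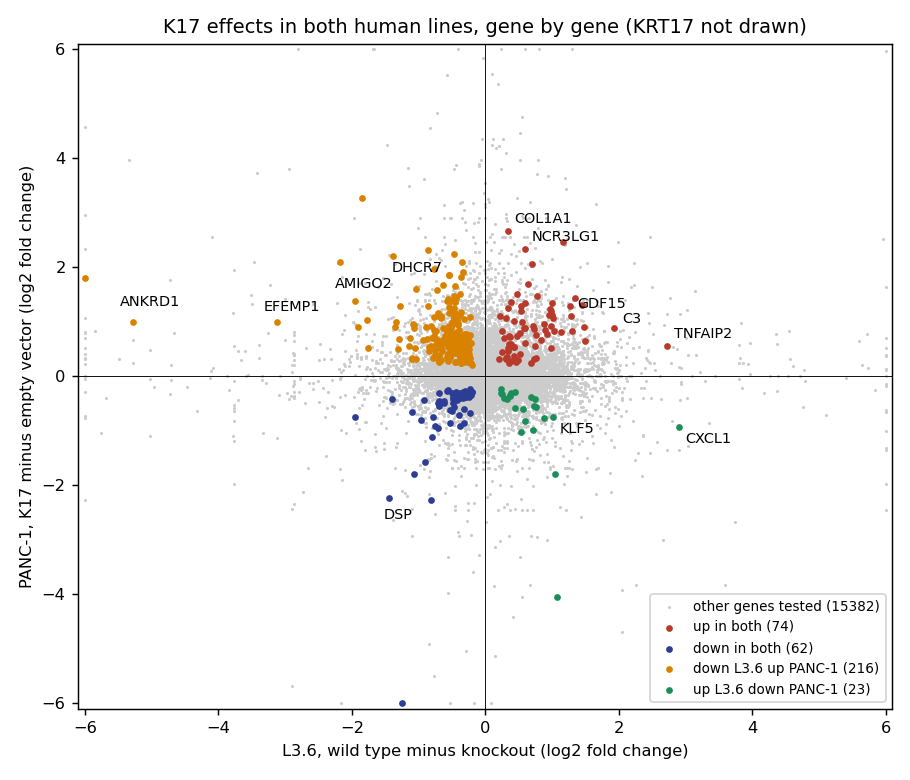
Log2 fold change with K17 of each gene tested, L3.6 (wild type minus knockout, horizontal) against PANC-1 (K17 minus empty vector, vertical), with values beyond 6 drawn at the edge and KRT17 (one of the 75) not drawn. Coloured points are the genes past the test in both lines, of which 216 lie in the upper left part, 75 with KRT17 in the upper right, 62 in the lower left and 23 in the lower right.

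A direct test of the difference between the 2 effects, the interaction, called 1819 genes (11.5%), 1374 (8.72%) higher in PANC-1 than in L3.6 and 445 (2.82%) lower. In 1502 of these (82.6%) the 2 fold changes had opposite signs, which a choice by their difference favours. All 239 opposite genes were among the calls. This nearly follows from their 2 opposite calls, because the interaction is the difference of the 2 effects. Also called were 33 of the 137 same-direction genes, whose effects differed in size. The rest were called in 1 line: 817 genes (5.18% of those tested) in L3.6 with the interaction and 502 (3.19%) in PANC-1 with the interaction, and 228 passed the interaction and neither line. Groups did not overlap in CPM in 29.1% of all genes in L3.6 (3 against 3) and 48.8% in PANC-1 (2 against 3), in both lines in 15.4%.

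The numbers depended on how the libraries were scaled. With upper-quartile factors the interaction calls split into 1204 higher and 1301 lower, where the main scaling gave 1374 and 445, and the opposite genes split into 223 and 161, where the main scaling gave 216 and 23. The L3.6 calls then split into 1380 that rose and 1306 that fell and the PANC-1 calls into 992 and 1219. This scaling moved the median interaction of all genes from 0.05 to -0.11 on the log2 scale. The excess of genes that fell in L3.6 and rose in PANC-1 over the reverse was smaller under that scaling. With the omitted empty vector library put back, 12 same-direction and 18 opposite genes passed, and without wild type replicate 1 of L3.6, 470 and 463.

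**Figure D2:**
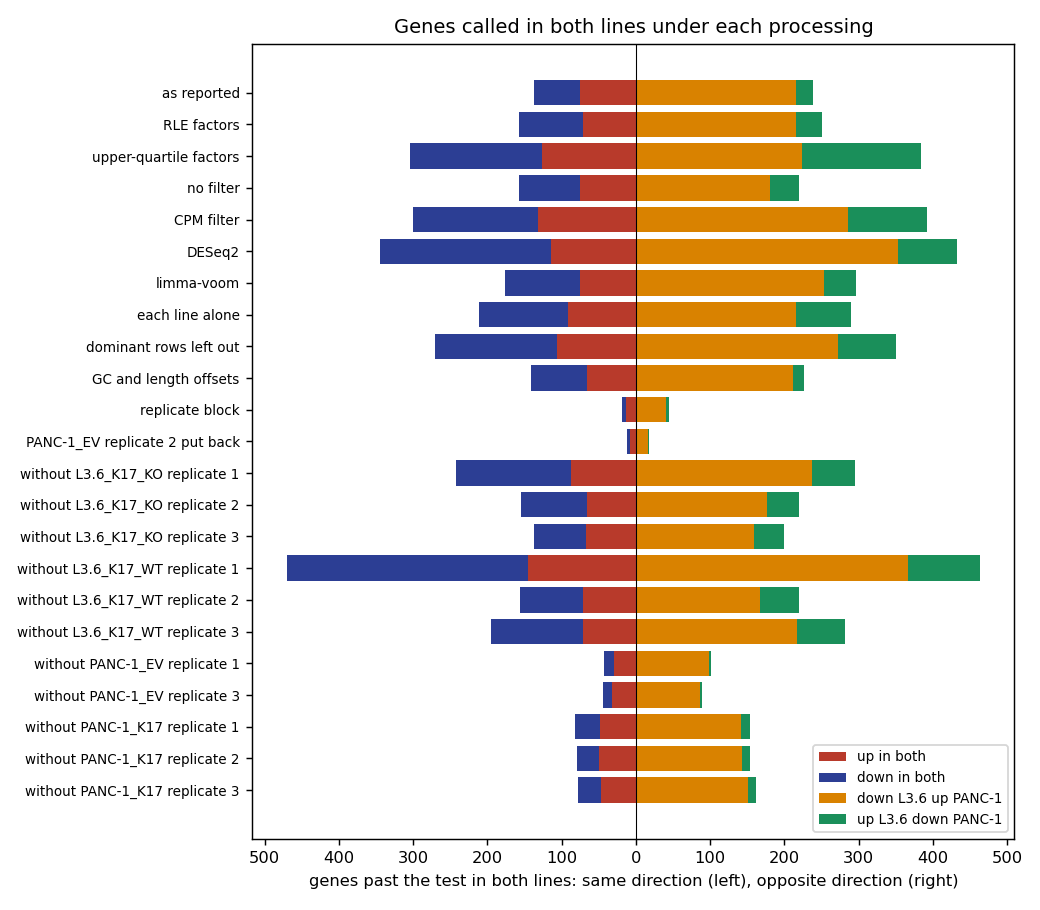
Number of genes past the test in both lines under each processing (horizontal axis, genes), same-direction genes to the left of 0 and opposite genes to the right, one bar per setting. Opposite genes outnumbered same-direction genes in each setting shown (239 against 137 as reported) except without wild type replicate 1 of L3.6 (463 against 470).

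The genes that rose with K17 in both lines included secreted and surface proteins and regulators of transcription. In each pattern the leading 8 were taken from protein-coding genes whose groups did not overlap in either line. Their higher group had a mean of at least 5 CPM in both lines. The 8 here, by the largest smaller fold change and KRT17 aside, were GDF15, PCDHA11, NPR3, FOSL2, RCAN1, IL1RL1, PLEKHA7 and NCR3LG1. GDF15 (ENSG00000130513.6, chr19:18374731-18389176) encodes a stress-induced cytokine of the TGF-beta superfamily. Its level was 6.52, 7.39 and 7.91 CPM in the L3.6 knockout and 21.2, 16.3 and 15.4 CPM in wild type. In PANC-1 it was 16.6 and 15.3 CPM with the empty vector and 33.4, 35.6 and 34.5 CPM with K17. Every K17-high library of a line lay above every K17-low library of it. The log2 fold change of GDF15 was 1.28 ± 0.14 in L3.6 and 1.11 ± 0.14 in PANC-1 (edgeR adjusted p = 0.000159 and 0.00038), and the interaction was -0.17 ± 0.19 (adjusted p = 0.611).

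NPR3, the clearance receptor of natriuretic peptides, rose by 1.48 ± 0.14 in L3.6 and 0.91 ± 0.14 in PANC-1. FOSL2, an AP-1 subunit, rose by nearly equal log2 amounts, 0.75 ± 0.14 in L3.6 and 0.76 ± 0.15 in PANC-1. Its interaction was 0.00429 ± 0.21. RCAN1, an inhibitor of calcineurin, had 0.73 ± 0.16 and 0.86 ± 0.16. In IL1RL1, the receptor of interleukin 33, the rise was larger in L3.6 (1.49 ± 0.13) than in PANC-1 (0.65 ± 0.14), and the interaction passed the test (-0.84 ± 0.19, edgeR adjusted p = 0.0145). The reverse held for PLEKHA7, a protein of adherens junctions (0.64 ± 0.13 in L3.6, 1.70 ± 0.14 in PANC-1, interaction 1.06 ± 0.19, adjusted p = 0.00393). It also held for NCR3LG1, the ligand of the natural killer cell receptor NKp30, at 0.60 ± 0.09 and 2.34 ± 0.09 with an interaction of 1.74 ± 0.12 (adjusted p = 6.09e-06). PCDHA11, a protocadherin, rose by 0.98 ± 0.19 and 1.199 ± 0.203, but the genes of its cluster share exons and their counts are uncertain. All 8 passed the test in both lines, with groups that did not overlap, which the choice of genes required. With the omitted empty vector library put back, 2 of the 8 (FOSL2 and IL1RL1) kept both calls. Without empty vector replicate 1, 5 of the 8 kept both calls, and without replicate 3, 4 of the 8.

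Genes that fell with K17 in both lines were led by WIPF1, ZDHHC13, C14orf132, MFGE8, RIMS4, ARRB1, IGFBP7 and MRFAP1L1. WIPF1 (ENSG00000115935.17, chr2:174559572-174682916), which binds WASP-family proteins and helps to assemble actin, had 5.54, 6.90 and 6.59 CPM in the L3.6 knockout and 3.06, 3.04 and 3.66 CPM in wild type. In PANC-1 it had 19.2 and 18.6 CPM with the empty vector and 11.0, 10.6 and 10.9 CPM with K17. The groups of each line did not overlap, as the choice of genes required, the lower values lying in the K17-high groups. WIPF1 fell by 0.96 ± 0.14 on the log2 scale in L3.6 and by 0.80 ± 0.13 in PANC-1 (edgeR adjusted p = 0.00135 and 0.00236). MFGE8, a secreted glycoprotein that binds integrins and apoptotic cells, was at 8.77, 7.18 and 10.6 CPM in the knockout and 4.61, 6.46 and 5.64 CPM in wild type L3.6, with log2 -0.69 ± 0.16. In PANC-1 it was at 405.2 and 357.1 CPM with the empty vector and 259.5, 267.9 and 259.1 CPM with K17, a log2 change of -0.54 ± 0.11.

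IGFBP7, a secreted protein that binds insulin-like growth factors, was at 105.7, 127.3 and 110.9 CPM in the knockout and 89.6, 73.7 and 78.6 CPM in wild type L3.6. In PANC-1 it was at 7.00 and 6.74 CPM with the empty vector and 3.86, 4.53 and 4.96 CPM with K17. It fell by 0.51 ± 0.10 and by 0.63 ± 0.13 on the log2 scale. The palmitoyltransferase gene ZDHHC13 fell by 0.75 ± 0.15 and 0.91 ± 0.15, and ARRB1, which encodes beta-arrestin 1, fell by 0.52 ± 0.12 and 0.61 ± 0.10. Outside the leading 8, the desmosome gene DSP fell by 0.82 ± 0.17 in L3.6 and by 2.27 ± 0.27 in PANC-1, where it was at 2.51 and 3.69 CPM with the empty vector. ANXA8 and FGFBP1, members of a basal-like tumour signature, fell in both lines too (ANXA8 log2 -0.78 and -0.75, FGFBP1 -0.90 and -1.57). Of 12 tested members of that signature 5 fell and 1 rose in L3.6 (10.2 and 4.7% of all genes). In PANC-1 2 fell and 1 rose (2.46 and 5.4% of all genes). The signature's medians were -0.30 in L3.6 and 0.20 in PANC-1. ANXA8 has a near-identical copy, so its reads are uncertain, and FGFBP1 was under 0.6 CPM in every PANC-1 library. Both calls held for 2 of the leading 8 (WIPF1 and C14orf132) with the omitted empty vector library put back. They held for 3 of 8 without empty vector replicate 1 or without replicate 3.

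The pattern with the most genes was down in L3.6 and up in PANC-1. Its leading 8 genes, among them matrix and secreted proteins, were AMIGO2, GDA, DKK3, LTBP1, EFEMP1, FGF14, ITGBL1 and PDE4B. AMIGO2 (ENSG00000139211.6, chr12:47075707-47079951), an adhesion protein with leucine-rich repeats, stood at 60.5, 61.8 and 76.2 CPM in the L3.6 knockout and at 17.7, 17.9 and 15.4 CPM in wild type. PANC-1 showed 19.9 and 18.9 CPM with the empty vector and 52.8, 48.8 and 50.1 CPM with K17. The K17-high libraries had the lower levels in L3.6 and the higher levels in PANC-1, without overlap in either line, as the choice required. The log2 changes were -1.96 ± 0.10 and 1.38 ± 0.11, with an interaction of 3.34 ± 0.15 (edgeR adjusted p = 4.44e-07).

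EFEMP1 (fibulin 3, ENSG00000115380.19, chr2:55865967-55924139), an extracellular matrix glycoprotein, had the larger contrast in L3.6. It was at 435.2, 486.7 and 479.3 CPM in the knockout and 63.1, 53.1 and 44.1 CPM in wild type, against 9.66 and 9.36 CPM with the empty vector and 19.3, 19.3 and 18.3 CPM with K17 in PANC-1. The log2 changes were -3.12 ± 0.11 and 1.00 ± 0.12, and the interaction of 4.12 ± 0.17 (adjusted p = 2.23e-07, edgeR) passed the test. The next genes also encode secreted or matrix-bound proteins. DKK3, of the Dickkopf family, changed by -1.77 ± 0.11 and 1.03 ± 0.11. LTBP1, which holds latent TGF-beta in the matrix, changed by -1.35 ± 0.16 and 1.00 ± 0.13. ITGBL1, a secreted protein related to integrin beta subunits, changed by -1.35 ± 0.09 and 0.91 ± 0.09. GDA, guanine deaminase, fell by 1.04 ± 0.11 and rose by 1.60 ± 0.12, and PDE4B, a cAMP phosphodiesterase, fell by 0.89 ± 0.07 and rose by 0.91 ± 0.08. With the omitted library put back 7 of the 8 kept both calls (all but PDE4B). All 8 kept them without empty vector replicate 1, and 7 (all but FGF14) without replicate 3.

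The reverse pattern, up in L3.6 and down in PANC-1, held 23 genes. CXCL1 (ENSG00000163739.4, chr4:73869393-73871242), a chemokine that draws neutrophils, led it. Its level was 1.61, 2.16 and 2.05 CPM in the L3.6 knockout and 13.2, 15.7 and 14.8 CPM in wild type, but 40.2 and 40.2 CPM with the empty vector and 20.9, 23.2 and 19.2 CPM with K17 in PANC-1. Neither line had overlapping groups, which the choice of genes required, and CXCL1 kept both calls in all 22 alternatives tried. It changed by 2.90 ± 0.15 and -0.93 ± 0.12 on the log2 scale, with an interaction of -3.83 ± 0.19 (edgeR adjusted p = 7.76e-07). SSH2, a phosphatase that activates cofilin, was at 65.5, 61.1 and 73.6 CPM in the knockout and 103.2, 89.4 and 107.7 CPM in wild type L3.6. With the empty vector it was at 27.7 and 21.2 CPM and with K17 at 15.3, 11.6 and 14.5 CPM, so that it changed by 0.59 ± 0.13 and -0.83 ± 0.14. PRKCA, protein kinase C alpha, changed by 0.76 ± 0.15 and -0.55 ± 0.15, and DLGAP5, a spindle protein, by 0.45 ± 0.11 and -0.58 ± 0.12. The transcription factor KLF5 rose by 1.01 ± 0.10 in L3.6 and fell by 0.74 ± 0.16 in PANC-1, where it was at 1.14 to 2.40 CPM. GXYLT2, GPHN, ELMSAN1 and ASPH complete the leading 8, with interactions of -1.28, -1.06, -0.74 and -0.72. Of the 8, CXCL1 alone kept both calls with the omitted library put back, and 2 kept them without empty vector replicate 1 (CXCL1 and ELMSAN1) or without replicate 3 (CXCL1 and SSH2).

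**Figure D3:**
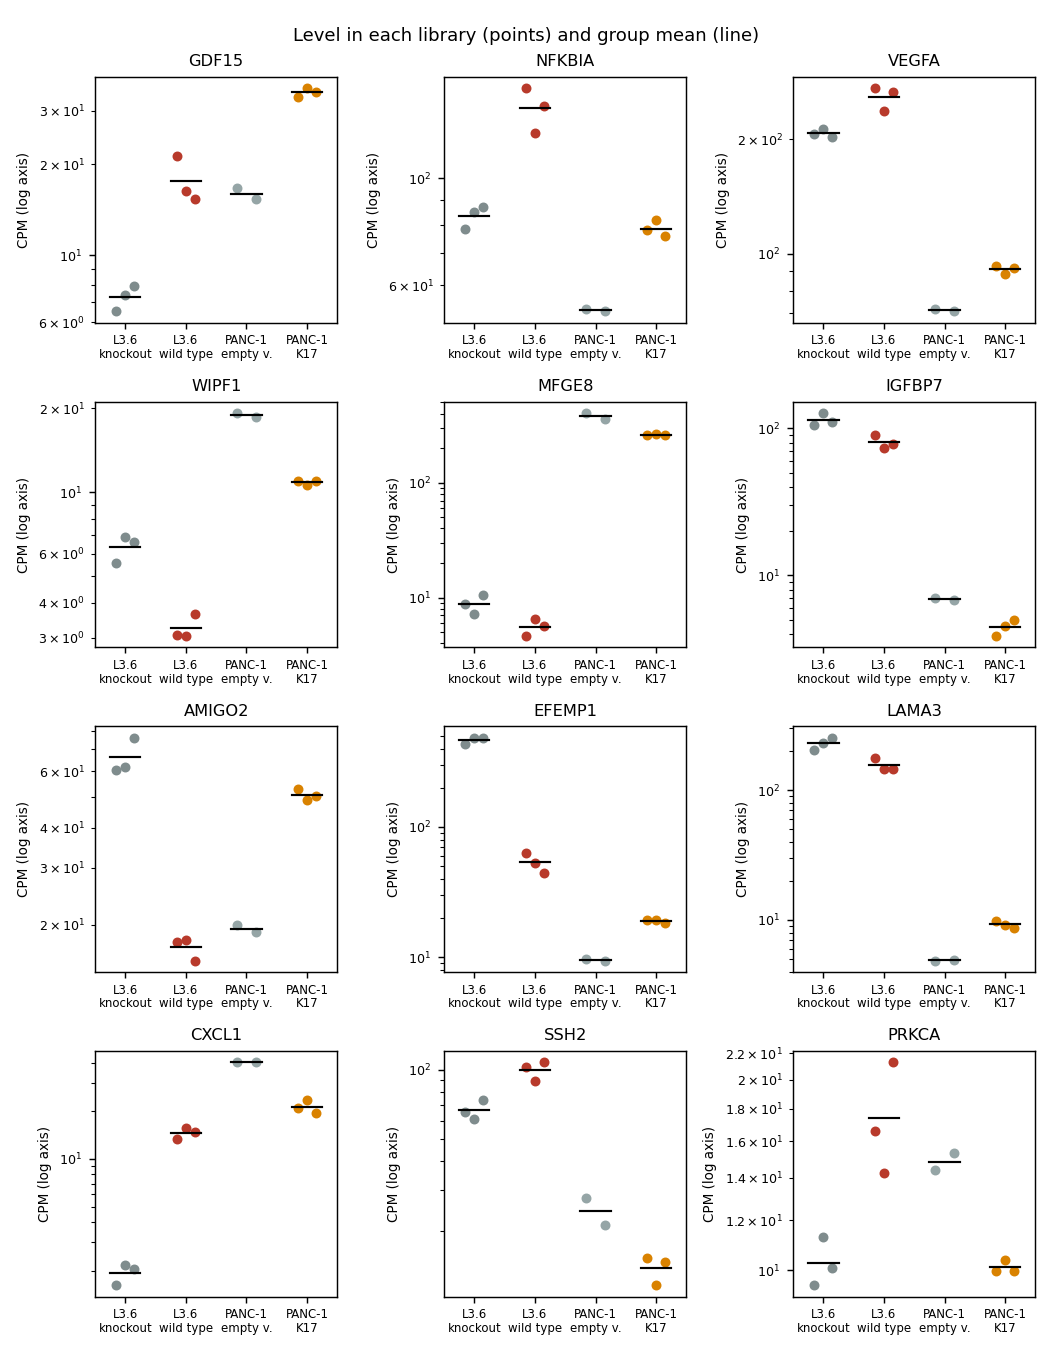
Level of 12 genes in each library (points, CPM on a log axis) by group, with the group mean as a line; the top row rose with K17 in both lines, the next row fell in both, the third fell in L3.6 and rose in PANC-1, and the last rose in L3.6 and fell in PANC-1. Groups of a line do not overlap in any panel, which the choice of genes required for all but NFKBIA, VEGFA and LAMA3. AMIGO2 sits at 60.5 to 76.2 CPM in the L3.6 knockout and 15.4 to 17.9 CPM in wild type, against 18.9 to 19.9 and 48.8 to 52.8 CPM in empty vector and K17 PANC-1.

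Among the genes with the highest and lowest interactions were several called in 1 line. PDGFB, the B chain of platelet-derived growth factor, had 4.22 ± 0.25 (edgeR adjusted p = 1.64e-06), the highest value past the interaction test among genes with a mean of at least 5 CPM in the higher group of both lines, KRT17 aside. It was at 32.5, 36.7 and 36.2 CPM in the L3.6 knockout and 2.696, 0.95 and 2.12 CPM in wild type, a log2 change of -4.11 ± 0.19, while PANC-1 ranged from 56.5 to 58.3 CPM with the empty vector and from 59.7 to 65.3 CPM with K17 (0.10 ± 0.15, adjusted p = 0.801). SEL1L3 showed the converse. It changed by -0.03 ± 0.13 in L3.6 and rose in PANC-1 from 0.556 and 0.575 to 6.42, 5.57 and 5.54 CPM, by 3.36 ± 0.20. SEMA3D, a secreted guidance cue, changed by 0.15 ± 0.22 in L3.6 and fell by 3.13 ± 0.24 in PANC-1, with an interaction of -3.28 ± 0.32. For BTBD9 (interaction -2.76 ± 0.73, adjusted p = 0.0401) the row had 0.351 to 7.51 CPM in L3.6 and 508.3 to 1194.3 CPM in PANC-1, and its call was lost in 11 of 21 alternatives.

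Of the 44 gene lists, that of cholesterol synthesis and uptake held the most opposite genes. Its members are induced together by the transcription factor SREBP2 when cells lack sterol. In PANC-1 19 of 22 tested members rose with K17 and 0 fell (5.4% of all genes rose). In L3.6 0 rose and 8 fell (10.2% of all genes fell), the same 8 being among the 19. The median log2 fold change of the list was -0.25 in L3.6 and 1.14 in PANC-1, beside -0.05 and 0.01 over all genes tested, and 18 members passed the interaction, each higher in PANC-1. HMGCS1, which makes HMG-CoA for the pathway, was at 201.1, 241.4 and 213.6 CPM in the L3.6 knockout and 172.9, 152.6 and 145.9 CPM in wild type. It was at 100.8 and 102.8 CPM with the empty vector and 243.8, 249.9 and 233.6 CPM with K17 in PANC-1. The groups lay apart in both lines, in opposite order. HMGCS1 changed by -0.48 ± 0.08 and 1.25 ± 0.09 (interaction 1.73 ± 0.12, edgeR adjusted p = 5.34e-06). DHCR7, the last enzyme of cholesterol synthesis, changed by -0.45 ± 0.08 and 1.67 ± 0.09 and the farnesyl diphosphate synthase gene FDPS by -0.32 ± 0.07 and 1.05 ± 0.09. INSIG1, a sterol sensor that holds back SREBP, had -0.77 and 1.96. The L3.6 falls are small: with the omitted empty vector library put back 0 members passed in L3.6 and 10 rose in PANC-1, and with each line fitted alone 4 fell in L3.6 and 19 rose in PANC-1.

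Fatty acid genes, many of them targets of SREBP1, went along in PANC-1. There 10 of 16 rose and 0 fell (5.4 and 2.46% of all genes). In L3.6 5 fell and 2 rose (10.2 and 4.7% of all genes). The medians were 0.01 in L3.6 and 0.54 in PANC-1. SREBF1, which encodes SREBP1, had 367.5, 424.6 and 354.9 CPM in the knockout and 298.0, 242.7 and 270.9 CPM in wild type L3.6. It had 17.0 and 20.1 CPM with the empty vector and 35.8, 39.1 and 36.7 CPM with K17. Its log2 changes were -0.50 ± 0.09 and 1.01 ± 0.11. Also opposite were the desaturases FADS1 (-0.40 and 0.86) and FADS2 (-0.47 and 1.47), the elongase ELOVL1 (-0.56 and 0.53) and ACSL4, which activates polyunsaturated fatty acids (-0.75 and 0.59). By contrast ACACA, acetyl-CoA carboxylase 1, rose in both lines (0.35 ± 0.08 and 0.54 ± 0.09, interaction 0.19 ± 0.12). FASN had 0.55, not past the test, in L3.6 and rose by 0.96 in PANC-1.

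Targets of NF-kB and inflammatory cytokines had positive medians in both lines, with members that went the other way. NF-kB is a transcription factor family that drives inflammatory genes. In L3.6 6 of 16 tested members rose and 0 fell (4.7 and 10.2% of all genes). In PANC-1 4 rose and 1 fell (5.4 and 2.46% of all genes). The medians were 0.99 in L3.6 and 0.43 in PANC-1. NFKBIA, the inhibitor that NF-kB itself induces, was at 78.4, 85.2 and 87.4 CPM in the L3.6 knockout and 153.7, 124.4 and 141.0 CPM in wild type. In PANC-1 it was at 53.7 and 52.9 CPM with the empty vector and 78.0, 81.8 and 75.7 CPM with K17. It rose by 0.74 ± 0.08 and by 0.56 ± 0.09 (edgeR adjusted p = 0.000163 and 0.00204, interaction -0.18 ± 0.12, adjusted p = 0.359). TNFAIP2, a TNF-induced gene, rose by 2.73 ± 0.13 in L3.6 and by 0.55 ± 0.12 in PANC-1, and its interaction of -2.17 ± 0.17 passed (adjusted p = 1.4e-05). TNFAIP3 and NFKBIZ, feedback regulators, rose in L3.6 (1.93 and 0.95) and had 0.43 and 0.37 in PANC-1, not past the test. CCL2 and NFKB2 rose in PANC-1 (1.69 and 0.77) and had 0.30 and 0.28 in L3.6. The chemokines CXCL1 and CXCL3 went up in L3.6 (2.90 and 2.47) and had -0.93, past the test, and -1.41, not past it, in PANC-1. In the promoter sequences shown above, CXCL1 and NFKBIA both held the NF-kB letters, although CXCL1 moved in opposite directions in the 2 lines and NFKBIA in the same direction. With the omitted library put back, 0 members rose in both lines and CXCL1 was still opposite.

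Of 10 complement genes 1 rose in both lines and 1 was opposite (0.476 and 1.52% of all genes). The list had 3 that rose and 1 that fell in L3.6 (4.7 and 10.2% of all genes). In PANC-1 3 rose and 0 fell (5.4 and 2.46% of all genes). C3, the central complement component, rose in both (1.93 ± 0.09 in L3.6, from 32.3 to 36.3 CPM in the knockout to 117.5 to 136.7 CPM in wild type, and 0.89 ± 0.12 in PANC-1, where no library exceeded 3.70 CPM). Both calls of C3 held in all 22 alternatives. CD59, which shields cells from complement, fell by 0.57 ± 0.06 and rose by 0.36 ± 0.06. Of 22 interferon-stimulated genes 7 rose in PANC-1, where 5.4% of all genes rose. They were OAS1, OAS2, OASL, IFIH1, IFIT2, USP18 and CMPK2 (log2 1.22 to 2.21). In L3.6 2 rose (MX2 and XAF1) and 2 fell, beside 4.7 and 10.2% of all genes. CMPK2 was the member past the test in both (log2 -1.38 and 2.21, lost in 13 of 22 alternatives). MHC class I and peptide loading genes had medians of -0.39 and 0.56. TAP1, a subunit of the peptide transporter, and NLRC5, which activates class I genes, were opposite (-0.39 and 0.48, -0.48 and 1.09), but each lost its pair of calls in 17 of 22 alternatives. HLA genes share reads.

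Targets of YAP and TEAD, the effectors of the Hippo pathway, fell with K17 in L3.6. There 14 of 22 fell and 1 rose (10.2 and 4.7% of all genes). In PANC-1 5 rose and 0 fell (5.4 and 2.46% of all genes). The medians were -0.50 in L3.6 and 0.24 in PANC-1. By interaction 11 were higher and 1 was lower (8.72 and 2.82% of all genes). ANKRD1 (chr10:90912096-90921276), a standard YAP target, was at 22.4, 28.9 and 30.1 CPM in the knockout and 0.479, 0.950 and 0.732 CPM in wild type L3.6. In PANC-1 it was at 1.001 and 1.203 CPM with the empty vector and 2.29, 2.01 and 2.27 CPM with K17. Its log2 changes were -5.28 ± 0.23 and 0.99 ± 0.21, with an interaction of 6.27 ± 0.32 (edgeR adjusted p = 9.65e-07). AMOTL2 (-0.70 and 0.33), NUAK2 (-0.93 and 0.67) and NT5E, the ecto-nucleotidase CD73 (-1.13 and 0.70), were opposite as well, with the pair of calls lost in 8, 9 and 2 of 22 alternatives. CYR61 fell in L3.6 (-2.49) and had -0.46 in PANC-1, not past the test, and AXL fell in L3.6 (-1.08) with 0.30 in PANC-1. IGFBP3 was the member that rose in L3.6 (2.40). The 4 opposite calls became 1 without empty vector replicate 1, 0 without replicate 3 and 1 with the omitted library put back.

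Integrins, laminins and hemidesmosome genes anchor epithelium to the basement membrane together with keratins. Of 23 tested, 10 fell and 0 rose in L3.6 (10.2 and 4.7% of all genes). In PANC-1 5 rose and 1 fell (5.4 and 2.46% of all genes). The medians were -0.42 in L3.6 and 0.27 in PANC-1. By interaction 13 were higher in PANC-1 and 1 was lower (8.72 and 2.82% of all genes). LAMA3, a laminin chain of epithelial basement membrane, was at 204.8, 229.7 and 254.8 CPM in the knockout and 176.4, 146.9 and 147.1 CPM in wild type L3.6. It was at 4.84 and 4.91 CPM with the empty vector and 9.82, 9.14 and 8.73 CPM with K17 in PANC-1, so that the groups lay apart in both lines in opposite order. LAMA3 changed by -0.55 ± 0.09 and 0.92 ± 0.12. LAMB3, another chain of that laminin, had 0.53 in L3.6, not past the test, and -2.24 in PANC-1. ITGB6, a partner of integrin alpha v, fell by 1.84 ± 0.24 in L3.6 and rose by 3.27 ± 0.62 in PANC-1, where no library exceeded 0.415 CPM. ITGA6, CD151 and DST fell in L3.6 (-0.65, -0.53 and -0.52) and had 0.05 to 0.16 in PANC-1.

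**Figure D4:**
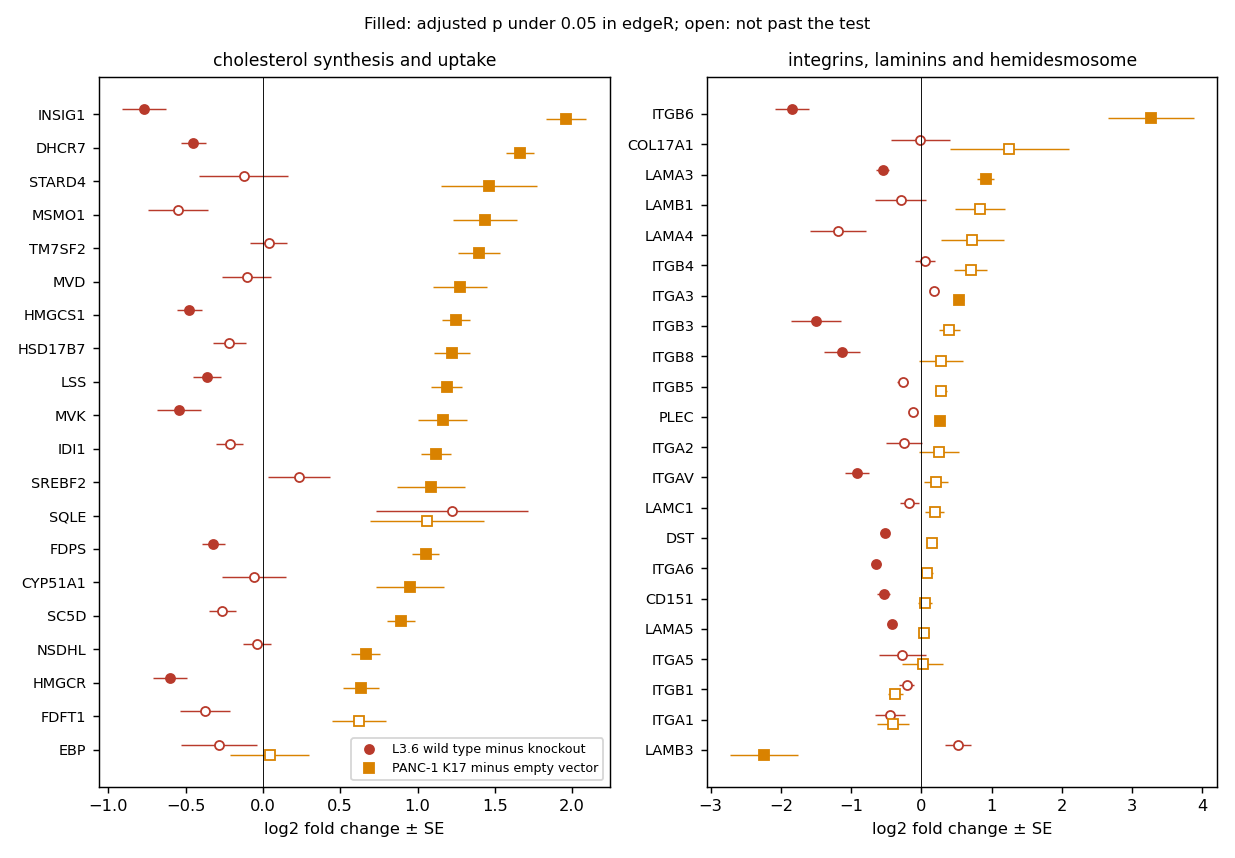
Log2 fold change with K17 ± SE of 20 tested members of the cholesterol list (left) and 22 of the integrin, laminin and hemidesmosome list (right), L3.6 as circles and PANC-1 as squares, filled where the edgeR adjusted p is under 0.05. In the left panel 17 squares are filled to the right of 0 and 7 circles to the left. In the right panel 9 circles are filled to the left of 0 and LAMB3 is the filled square on the left.

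Actin and myosin genes fell in L3.6 in 11 of 23 and rose in 1 (10.2 and 4.7% of all genes). In PANC-1 4 rose and 1 fell (5.4 and 2.46% of all genes). The medians were -0.44 and -0.01, the second turning to 0.02 with the CPM filter. MYH9, non-muscle myosin heavy chain, fell by 0.79 ± 0.06 and rose by 0.34 ± 0.07, TAGLN2 fell by 0.45 ± 0.08 and rose by 0.51 ± 0.09, and TPM1, a tropomyosin, fell by 0.53 ± 0.09 and rose by 0.35 ± 0.08. Among TGF-beta and BMP genes 9 of 25 fell and 0 rose in L3.6, and 4 rose and 1 fell in PANC-1, beside those same shares of all genes. The 4 opposite members were the receptor ACVR1 (-0.49 and 0.51) and the latent TGF-beta binding proteins LTBP1, LTBP3 and LTBP4 (-1.35 and 1.00, -0.41 and 0.42, -0.69 and 0.29). The pair of calls was lost in 16 of 22 alternatives for LTBP4 and in 7 for LTBP3. TGFBR2 and TGFB1 fell in L3.6 (-0.79 and -0.65) and had -0.07 and 0.28 in PANC-1. TGFBI, a TGF-beta induced matrix protein, was counted 18 times in the knockout and 0 times in wild type L3.6, at least 5.80-fold lower on a floor of 3 counts over the group. It rose in PANC-1 from 48.3 and 40.3 to 149.7, 161.8 and 152.7 CPM. VIM, the mesenchymal filament protein vimentin, fell by 0.69 in L3.6 and did not pass the test in PANC-1.

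Growth factors and their receptors were split. Of 28 tested, 12 fell and 4 rose in L3.6 (10.2 and 4.7% of all genes). In PANC-1 8 rose and 3 fell (5.4 and 2.46% of all genes). VEGFA, which drives vessel growth, rose in both: from 206.7, 212.3 and 203.1 to 272.1, 237.0 and 265.3 CPM in L3.6, and from 71.7 and 70.5 to 92.8, 88.3 and 91.7 CPM in PANC-1. These are log2 changes of 0.32 ± 0.06 and 0.35 ± 0.07, with an interaction of 0.04 ± 0.09 (edgeR adjusted p = 0.834). The insulin receptor INSR rose in both as well (1.03 and 0.84). Another 5 members went down in L3.6 and up in PANC-1. They were PDGFA (-0.53 and 0.35), PDGFC (-0.61 and 0.60), VEGFB (-0.51 and 0.50), IGFBP6 (-0.71 and 1.16) and the chemokine receptor CXCR4 (-2.19 and 2.09). ERRFI1, a feedback inhibitor of the EGF receptor, fell in both (-0.40 and -0.71), a pair of calls lost in 17 of 22 alternatives, and SPRY4, a feedback inhibitor of MAPK signalling, rose in both (0.31 and 0.34).

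Matrix and adhesion genes outside these lists included COL1A1, a type I collagen chain, which rose by 0.34 ± 0.09 in L3.6 and by 2.66 ± 0.11 in PANC-1. TIMP2, an inhibitor of matrix metalloproteinases, fell by 0.73 ± 0.09 and rose by 1.58 ± 0.08, and kept both calls in all 22 alternatives. SERPINE2 fell in both (-0.62 and -0.45). LOXL2, a lysyl oxidase, was opposite (-0.84 and 0.47). The pair of calls was lost in 9 of 22 alternatives for SERPINE2 and in 8 for LOXL2. Among desmosome genes DSC3 was opposite (-0.47 and 2.24) and DSP, as given above, fell in both. KRT19 and KRT7 fell in L3.6 (-0.37 and -0.58) and had 0.10 and 0.60, not past the test, in PANC-1. By interaction 2 of 10 keratins passed, beside 11.5% of all genes.

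In the ATF4 list, whose members respond to amino acid shortage, the serine synthesis gene PHGDH (-0.57 ± 0.08 and 0.66 ± 0.09) and the cystine transporter SLC7A11 (-0.32 ± 0.08 and 0.78 ± 0.09) were opposite and GDF15 rose in both. Here 6 of 22 fell in L3.6 and 6 rose in PANC-1 (10.2 and 5.4% of all genes). HERPUD1 of the unfolded protein response (-0.47 and 0.51), the collagen hydroxylase P4HA2 (-0.36 and 0.54), the lysosomal genes LAMP2 (-0.29 and 0.61) and HEXA (-0.27 and 0.36), the transporter ABCC4 (-0.80 and 0.70) and the mitochondrial protease LONP1 (-0.27 and 0.37) were opposite too. Of these, HEXA lost its pair of calls in 14 of 22 alternatives, LONP1 in 10, and LAMP2 and P4HA2 in 8 each. BCL2L1, the survival gene of the BCL2 family, had -0.13 ± 0.07 in L3.6, not past the test, and rose by 1.31 ± 0.08 in PANC-1, with an interaction of 1.43 ± 0.10. CDKN1A fell by 0.84 in L3.6 and had 0.21 in PANC-1.

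The lists of respiratory chain, mitochondrial DNA, replication and mitosis genes had no member past the test in both lines, which 2.39% of all genes passed. Of the 43 lists with tested members, 30 held such a gene. Of 47 nuclear respiratory chain genes 2 fell in L3.6 and 0 passed in PANC-1 (10.2 and 7.86% of all genes). Of 13 mitochondrial DNA genes 2 fell in L3.6, where 10.2% of all genes fell. They were MT-ND4 and MT-ND4L (-0.30 and -0.32), with 0.09 and 0.07 in PANC-1. Of 29 mitosis genes 11 fell in L3.6 (10.2% of all genes fell there), among them AURKB (-0.87) and CDK1 (-0.44), and 0 passed in PANC-1 (medians -0.25 and -0.14). With upper-quartile factors 10 fell in L3.6 and 11 in PANC-1, 5 of them in both, while 1306 and 1219 of all genes fell. By interaction 2 of the 29 passed under the main scaling, beside 11.5% of all genes. Of 30 DNA replication genes 2 fell in L3.6 and 4 in PANC-1 (10.2 and 2.46% of all genes), among the latter MCM10 (-0.49, interaction -0.47). Pyrimidine synthesis had 1 gene of 17 past the test in either line, CMPK2. Classical tumour signature genes had 1 call of 9 (ANXA10, -0.61 in L3.6). Over all genes 14.9% passed in L3.6 and 7.86% in PANC-1.

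**Figure D5:**
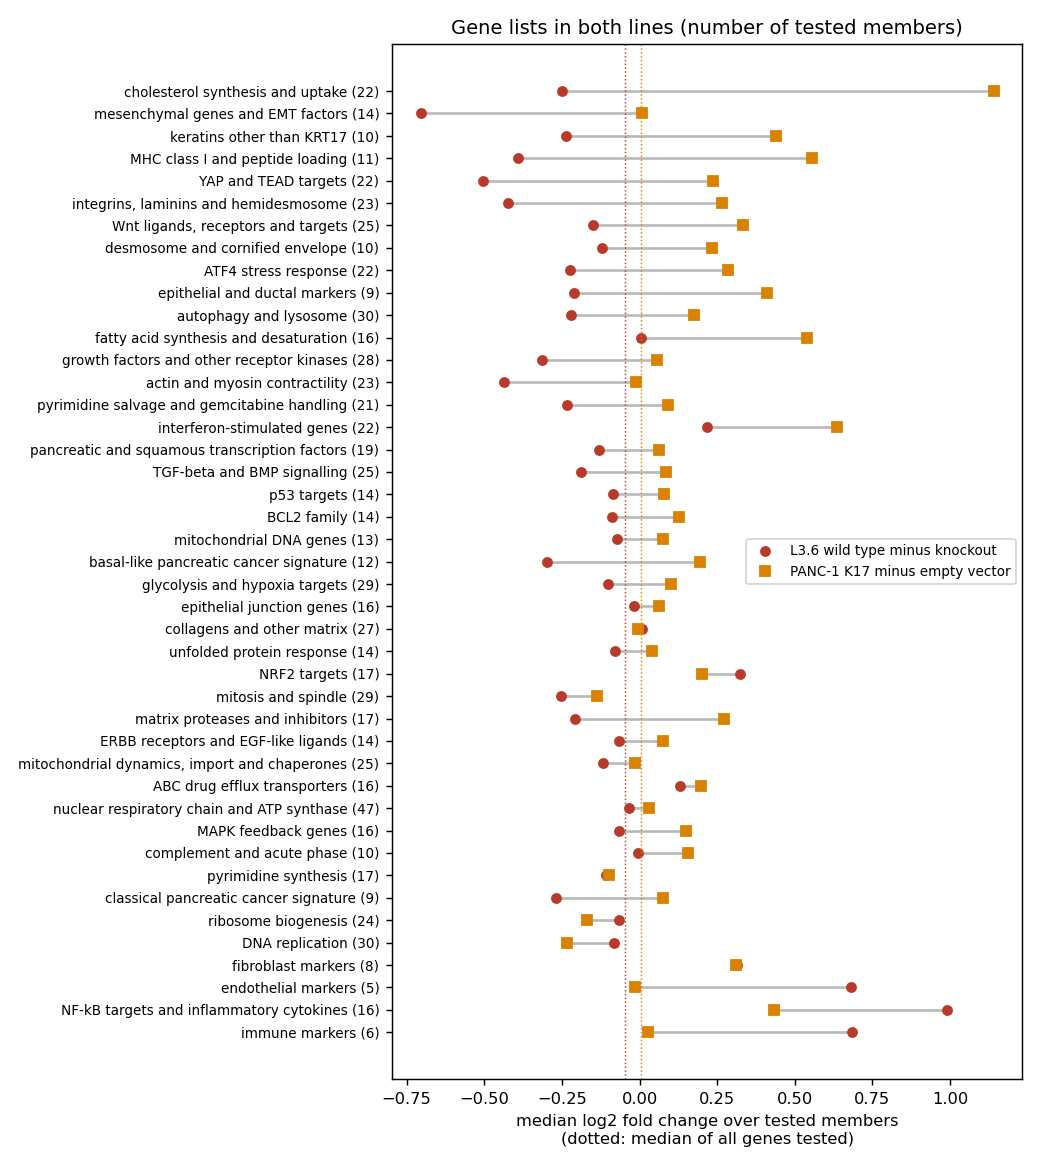
Median log2 fold change with K17 over the tested members of each of the 43 gene lists with tested members (number in brackets), L3.6 as circles and PANC-1 as squares, with dotted lines at the medians of all genes tested. The cholesterol list lies at -0.25 and 1.14, and the NF-kB list is to the right of both dotted lines in both (0.99 and 0.43).

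Most markers of other cell types were low, and they did not follow one course. The highest in L3.6 were COL1A1, COL3A1 and PDPN. They averaged 100.5, 35.72 and 29.44 CPM in the knockout and 126.8, 30.76 and 15.6 CPM in wild type. Fibroblast markers summed to 164 to 187 CPM in the knockout and 173 to 208 CPM in wild type L3.6, and to 48.4 to 48.7 and 168 to 174 CPM in empty vector and K17 PANC-1. In PANC-1 that rise was mostly COL1A1 (24.6 to 155.8 CPM on average). COL3A1 (3.365 to 0.4439 CPM) and THY1 (16.51 to 8.901 CPM) were lower with K17 there. LUM and FAP were at or below 0.0444 CPM in every group. Endothelial markers summed to 28.6 to 32.3 and 21.1 to 25.8 CPM in L3.6 and 5.05 to 6.08 and 5.46 to 5.58 CPM in PANC-1, with PLVAP at 0 in every library. Immune markers summed to 4.98 to 9.27 and 9.74 to 10.45 CPM in L3.6 and 45.0 to 45.4 and 45.01 to 52.96 CPM in PANC-1, there mostly CD68, with CD3E and CD2 at 0. Acinar and islet markers summed to at most 1.14 CPM in any library. The part of these markers in the results was not tested. These are bulk samples, in which a lower share of cells with a transcript and less of it per cell cannot be told apart. Genes that fell in L3.6 and rose in PANC-1 had a median GC content of 52.5%, beside 49.4% over all genes, and the effects correlated with GC content across genes with Spearman -0.121 in L3.6 and 0.118 in PANC-1. With offsets for GC content and length, 226 opposite and 142 same-direction genes passed.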

How the data were processed

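RNA-seq gene counts of 11 human libraries were used: 3 L3.6 knockout, 3 L3.6 wild type, 2 PANC-1 empty vector (replicate 2 left out) and 3 PANC-1 K17. The authors deposited raw counts per gene for each library, and column 2 of each table was used. bcl2fastq 1.8.4, STAR 2.7.3a and kallisto 0.46.2 are named per the submitters' processing notes, with the build GRCh38. Neither the role of each tool nor the counting options, strand setting and annotation release are stated there. Gene names and positions came from GENCODE 29, which matched 34474 of 34505 identifiers, and promoters from RefSeq on GRCh38.p14, which had an entry for 10809 of 13965 protein-coding genes.

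Counts were filtered with filterByExpr, scaled by TMM and fitted in 1 model of 4 groups with edgeR 4.0.16 (R 4.3.3, robust quasi-likelihood test, Benjamini-Hochberg adjusted p under 0.05 over 15758 genes). CPM values use TMM-scaled library sizes. Every adjusted p in the text is from this edgeR test. Named by rule were 8 genes of each pattern, the 4 genes with the highest and lowest interactions and members of 44 gene lists. The 8 had the largest smaller absolute fold change among protein-coding genes whose groups did not overlap in either line. Their higher group also had a mean of at least 5 CPM in both lines, and opposite genes had to pass the interaction. Lists without a gene past the test in both lines gave members past the interaction, if any. Other names were chosen after their values were seen. Patterns and lists were chosen with earlier results of these data known. Alternatives were other scalings and filters, DESeq2 1.42.0, limma-voom (limma 3.58.1), a replicate block, each line alone, the omitted library put back, dominant rows left out and each library left out. GC and length offsets and an adjusted p under 0.01 were added after the data were seen. On simulated counts for 15758 genes, 31 of 50 genes changed 2-fold the same way in both lines were called in both, 29 of 50 changed 2-fold in opposite ways, and 45 and 41 of 50 changed 4-fold. Unchanged genes made up 8 of 164 calls in L3.6, 9 of 164 in PANC-1 and 5 of 90 by interaction. Fewer genes were changed than the data call, all above a minimum mean count in both lines. The shares called may therefore differ from those in the data. Single values of a few list members, which stay in the counts and medians of their lists, are not reported here.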

Additional observations from a re-analysis of the deposited data

Results flagged for a closer look

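For 80 of the genes named by rule the 2 lines' K17 effects differed by the interaction in the edgeR fit (adjusted p under 0.05). That rule asked the leading opposite genes, the highest and lowest interactions and some list members to pass it. The 80 therefore follows in part from the choice of genes. The values below are log2 interactions, positive where the effect was higher in PANC-1 than in L3.6, and the causes were not tested. For genes that moved in opposite directions, the sign follows from this definition. Among the genes that rose in both lines, the interaction was positive for KRT17 (10.11), PLEKHA7 (1.06), NCR3LG1 (1.74) and COL1A1 (2.33). Among the genes that rose in both lines, the interaction was negative for IL1RL1 (-0.84), TNFAIP2 (-2.17) and C3 (-1.04). Among the genes that fell in L3.6 and rose in PANC-1, the interaction was positive for AMIGO2 (3.34), GDA (2.65), DKK3 (2.81), LTBP1 (2.34), EFEMP1 (4.12), FGF14 (2.01), ITGBL1 (2.26) and PDE4B (1.8). Of the same sign were CD59 (0.94), CMPK2 (3.58), TAP1 (0.87), NLRC5 (1.56), AMOTL2 (1.03), NUAK2 (1.60), NT5E (1.83) and ANKRD1 (6.275). Of the same sign were LOXL2 (1.31), TGFBI (8.65), DSC3 (2.71), LAMA3 (1.47), ITGB6 (5.12), TIMP2 (2.31) and ACVR1 (1.00). Of the same sign were LTBP3 (0.83), LTBP4 (0.98), PDGFA (0.88), HMGCS1 (1.73), FDPS (1.37), DHCR7 (2.12) and ACSL4 (1.34). Of the same sign were FADS1 (1.26), SREBF1 (1.504), P4HA2 (0.89), SLC7A11 (1.11), PHGDH (1.23), HERPUD1 (0.98), ABCC4 (1.5) and LONP1 (0.63). With this sign as well were LAMP2 (0.90), HEXA (0.63), MYH9 (1.12), TAGLN2 (0.95) and TPM1 (0.88). Among the genes that rose in L3.6 and fell in PANC-1, the interaction was negative for CXCL1 (-3.83), SSH2 (-1.41), PRKCA (-1.31), GXYLT2 (-1.28), DLGAP5 (-1.03), GPHN (-1.06), ELMSAN1 (-0.74) and ASPH (-0.72). With this sign as well was KLF5 (-1.75). In genes past the test in at most 1 line, the interaction was positive for PDGFB (4.22), SEL1L3 (3.39), CLDN1 (1.76), KRT19 (0.46), KRT7 (1.18), TNFRSF10B (0.74), CDKN1A (1.05) and MT-ND4 (0.40). With this sign as well were MT-ND4L (0.39), NDUFA2 (0.47), NUSAP1 (0.50), CDC25C (0.85), BCL2L1 (1.43) and EGFL7 (1.15). In genes past the test in at most 1 line, the interaction was negative for SEMA3D (-3.28), BTBD9 (-2.76), ATP5PO (-1.002), MCM10 (-0.47), POLR1A (-0.42) and GNL3 (-0.56). Among the genes that fell in both lines, the interaction was negative for DSP (-1.45). The fitted TGFBI value rests on a wild type L3.6 group at 0 counts and is no bound.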

How the results depend on the processing

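Counts are given in the order L3.6, PANC-1, interaction, same direction and opposite, beside 2342, 1239, 1819, 137 and 239 as reported. Putting back PANC-1 empty vector replicate 2 gave 204, 363, 270, 12 and 18. An adjusted p under 0.01 gave 826, 628, 789, 42 and 83. Upper-quartile factors gave 2211 genes in PANC-1, 304 in the same direction and 384 opposite, the CPM filter 2014, 300 and 392, and DESeq2 2158, 345 and 432. limma-voom called 2469 genes in PANC-1. Each line fitted alone gave 1335 genes in L3.6, 3442 in PANC-1 and 212 in the same direction. Without the dominant rows 270 genes had the same direction. The replicate block gave 674, 394, 550, 19 and 44 genes. Deviations of same-numbered libraries from their group means correlated at -0.0905, -0.0474 and 0.0143 in L3.6 and 0.0476, 0.0791 and 0.0134 in PANC-1. These used all 12 human libraries, so the PANC-1 values include the omitted empty vector library. With 3 libraries per group they cannot decide whether replicate numbers pair the samples. Leaving out 1 library at a time gave 1515 to 4188 genes in L3.6, 445 to 2252 in PANC-1, 826 to 3105 by interaction, 43 to 470 in the same direction and 89 to 463 opposite. The highest counts came without wild type replicate 1 of L3.6, and PANC-1 calls were 484 without empty vector replicate 1 and 445 without replicate 3. With the omitted library put back, values changed sign for the interactions of KRT19 (-0.092), MT-ND4 (-0.11), NDUFA2 (-0.021) and NUSAP1 (-0.051) and for the PANC-1 effects of LTBP4 (-0.071), PDGFA (-0.48) and POLR1A (0.013). The cause was not tested for any of these. With 2 empty vector libraries and shallower L3.6 libraries, small effects and low genes are measured least precisely.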
